A study of Mus musculus with 4 samples.

Results

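Sgk1, the serum and glucocorticoid regulated kinase, was examined in haematopoietic stem cells (HSC) together with 6 other genes of the glucocorticoid response: the receptor gene Nr3c1 and its transcriptional targets Tsc22d3, Fkbp5, Per1, Zbtb16 and Ddit4. These 7 genes, of 18193 genes measured with a single gene symbol, were represented by 19 of the 45101 probe sets on the arrays. They were selected on log2 differences measured in the comparison of Rb family deficient with wild type HSC, that of Sgk1 among them, so their differences in it are given as a description, with no test. For each gene the probe set that was brightest on average over the 4 arrays was taken as the main value, and the others are given beside it.

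The arrays compared 2 pools of Rb family deficient HSC (genotype label Rb -/- p130 -/- p107-/-) with 2 pools of HSC labelled wild type (Rb +/+ p130 +/+ p107-/-). By label both groups lacked p107, encoded by Rbl1, and they differed in Rb and p130, the products of Rb1 and Rbl2, which hold back E2F transcription factors. Each pool came from 3 adult mice, recombination was started with tamoxifen, and HSC were sorted as KLS CD48- CD150+ cells 2 weeks later. The sources used here do not give the mice's ages or sexes, or the driver of the recombinase. Whether pools shared mice is not stated, so errors measure only the spread between these pools.

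Glucocorticoids are adrenal steroid hormones that enter the cell and bind the glucocorticoid receptor, which waits in the cytoplasm in a complex with the chaperone HSP90 and an immunophilin. The bound receptor moves to the nucleus and attaches as a dimer to a palindromic glucocorticoid response element, made of a pair of hexamers that face each other. Among the genes it switches on in many cell types are Sgk1, which encodes a kinase activated through mTORC2 and PDK1, Tsc22d3 (GILZ), which restrains AP-1 and NF-kB, and Fkbp5, whose product lowers the affinity of the receptor for its hormone. Per1 is a repressor of the circadian clock, Zbtb16 (PLZF) is a zinc finger repressor, and Ddit4 (REDD1) restrains mTORC1. Several of them, Sgk1, Per1 and Ddit4 in particular, also respond to growth factors, osmotic stress or lack of oxygen.

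Promoter sequence is shown first, because the response element of the receptor can be read in it. Windows are printed for Sgk1 and Tsc22d3, whose values stood apart, and for Fkbp5, whose values did not. None was at hand for Nr3c1 or Zbtb16. RefSeq promoter windows on build GRCm38.p6, each 300 bases long with 250 before and 50 after an annotated start, were at hand for 5 of the 7 genes, as 13 windows. They were searched on both strands for the receptor hexamer AGAACA, which reads as TGTTCT from the opposite strand. The full element is that hexamer, any 3 bases, and then its opposite-strand form. The other motifs were the cyclic AMP response element TGACGTCA, the E-box CACGTG, and the E2F element, written either TTTCCCGC or as its second form, TTTGGCGC. Of the 6 Sgk1 windows, the one at chr10:21993640-21993939 on the plus strand held the full element, at position -189 from that annotated start. The capitals below mark that element and, at the 5′ end, an E-box that shares 2 bases with a further hexamer. Every full element also counts as hexamers.
Sgk1 window with the full element: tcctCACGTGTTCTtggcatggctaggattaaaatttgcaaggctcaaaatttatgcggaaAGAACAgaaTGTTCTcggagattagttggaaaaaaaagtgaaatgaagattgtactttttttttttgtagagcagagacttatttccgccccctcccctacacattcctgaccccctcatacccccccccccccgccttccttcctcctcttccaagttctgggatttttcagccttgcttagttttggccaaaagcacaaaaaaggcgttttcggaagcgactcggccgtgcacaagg

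The full element was in 3 of 32851 windows, or 0.00913%, and a hexamer in 19.0% of windows. The other windows with the full element belonged to Acnat2, whose log2 difference on the arrays was 0.04 (SE 0.14), and to the predicted gene Gm35041, for which no value was taken. Acnat2 was dim, with 4.38 and 4.30 in deficient HSC and 4.29 and 4.31 in wild type HSC, so its difference says little about the element. Of the 13 windows of the 5 genes, 4 held a hexamer, 3 of them of Sgk1 and 1 of Tsc22d3. The Sgk1 window at chr10:21991973-21992272 on the plus strand carried it at position -13, in capitals here.
Sgk1 window with a hexamer near the start: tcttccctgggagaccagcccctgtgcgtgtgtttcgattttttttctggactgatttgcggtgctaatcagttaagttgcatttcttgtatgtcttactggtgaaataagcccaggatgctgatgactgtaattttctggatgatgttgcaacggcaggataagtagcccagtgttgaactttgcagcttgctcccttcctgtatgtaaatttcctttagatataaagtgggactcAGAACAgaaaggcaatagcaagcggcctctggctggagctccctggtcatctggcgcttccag

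The Tsc22d3 window with a hexamer lay at chrX:140600473-140600772 on the minus strand, and the match, in capitals, stood at position -185.
Tsc22d3 window with a hexamer: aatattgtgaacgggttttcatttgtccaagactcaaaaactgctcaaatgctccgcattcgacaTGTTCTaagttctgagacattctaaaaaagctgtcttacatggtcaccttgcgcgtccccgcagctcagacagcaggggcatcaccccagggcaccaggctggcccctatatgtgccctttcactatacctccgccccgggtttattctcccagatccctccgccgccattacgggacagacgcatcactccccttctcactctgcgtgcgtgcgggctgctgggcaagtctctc

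No hexamer was found in the windows of Fkbp5, Per1 or Ddit4. The single Fkbp5 window, at chr17:28486100-28486399 on the minus strand, held an E-box, the motif bound by the clock factors CLOCK and BMAL1, and so did 1 of the 2 Per1 windows, while E-boxes were in 7.15% of all windows.
Fkbp5 window with the E-box in capitals: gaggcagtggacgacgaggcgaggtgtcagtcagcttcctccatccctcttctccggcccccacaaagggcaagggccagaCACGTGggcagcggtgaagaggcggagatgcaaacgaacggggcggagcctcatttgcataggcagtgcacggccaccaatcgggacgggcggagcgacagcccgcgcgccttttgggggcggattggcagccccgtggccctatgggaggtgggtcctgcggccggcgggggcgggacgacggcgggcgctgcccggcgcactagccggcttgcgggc

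The cyclic AMP response element (1.79% of all windows) and the E2F element (1.56%) were in none of the 13 windows. A match describes letters only, and response elements of the receptor often lie far from the start, outside such windows. Over all 2453 measured genes with a hexamer in a window the median log2 difference between the groups was 0.00, against -0.01 over the 14452 measured genes with a window.

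Sgk1 stood apart from the other 6 genes in size. On the log2 scale it had values of 9.04 and 8.73 in deficient HSC and 7.77 and 7.67 in wild type HSC. Both deficient pools lay above both wild type pools, by 0.96 to 1.36 depending on which pools are set against each other. The means were 8.88 ± 0.22 in the deficient pools and 7.72 ± 0.07 in the wild type pools (SD, n = 2 each), a log2 difference of 1.16 (SE 0.17), or 2.23-fold. By size of difference Sgk1 was number 61 of the 18193 genes, counted from the most positive, and it was the only one of the 7 past 2-fold, which 0.528% of all genes reached in the higher direction. With 1 pool left out the difference stayed between 1.01 and 1.31. Sgk1 has 1 probe set on this array, so no second measurement of it was at hand.

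Nr3c1, the receptor itself, lay on the opposite side. Its main probe set had log2 values of 9.45 and 9.63 in deficient HSC and 9.90 and 9.92 in wild type HSC. Both deficient pools were lower, by 0.27 to 0.47, and the mean difference was -0.37 (SE 0.15), or 1.29-fold lower. The other 5 probe sets did not show the same: the one next in brightness had 9.46 and 9.46 in deficient HSC and 9.40 and 9.28 in wild type HSC, a difference of 0.12 (SE 0.14). Another bright one overlapped between the groups, with 8.72 and 9.04 in deficient HSC and 9.26 and 8.81 in wild type HSC (-0.16, SE 0.22). The 3 dim ones, with means of 3.77 to 5.38, differed by -0.08 to 0.06. The direction of Nr3c1 depended on the probe set, and the mean over its 6 probe sets differed by -0.065.

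Tsc22d3, the textbook reporter of receptor activity in blood cells, was higher in both deficient pools. Its main probe set had log2 values of 10.41 and 10.37 in deficient HSC and 9.93 and 10.02 in wild type HSC. The pools of a group differed by no more than 0.09 and the groups did not overlap, with a mean difference of 0.41 (SE 0.14), or 1.33-fold. The second probe set had 9.35 and 9.23 in deficient HSC and 7.77 and 8.97 in wild type HSC, a difference of 0.92 (SE 0.40). The third had 7.02 and 7.03 in deficient HSC and 6.18 and 6.83 in wild type HSC, a difference of 0.52 (SE 0.24). In both of these the distance came largely from wild type pool 1: against wild type pool 2 alone the deficient pools were higher by 0.26 to 0.38 in the second and by 0.18 to 0.20 in the third. All 4 Tsc22d3 probe sets were lowest in wild type pool 1. The dimmest, the only one with a name that marks it as specific to 1 transcript, had a mean of 4.82 and differed by 0.02 (SE 0.14).

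**Figure D1:**
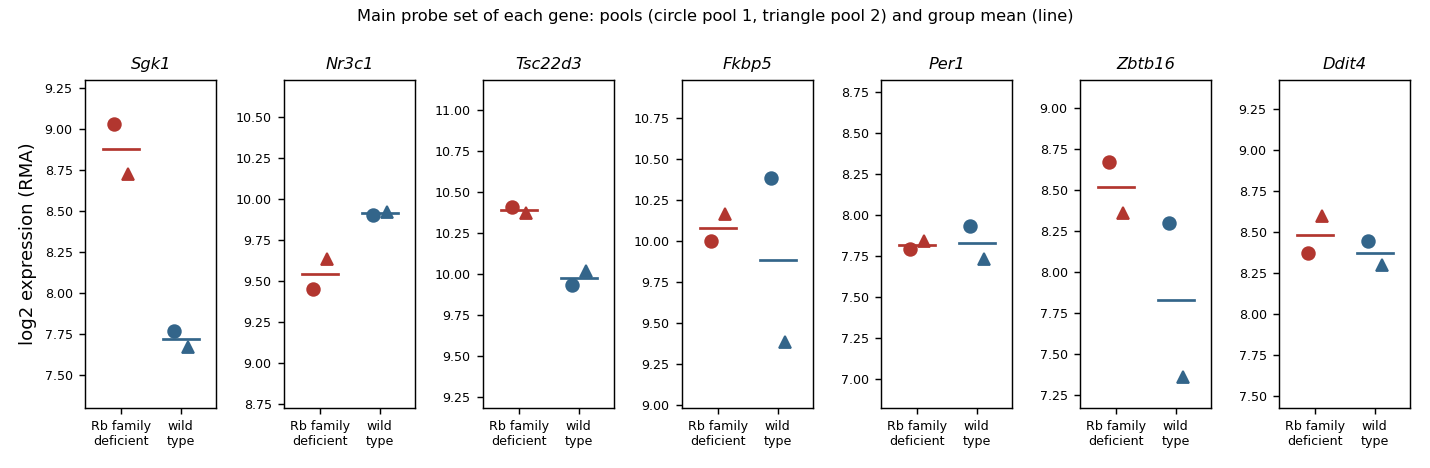
Log2 expression of the main probe set of each of the 7 genes (y axes, each spanning the same range of log2 units) in the Rb family deficient and wild type pools, with pool 1 as a circle, pool 2 as a triangle and the group mean as a line. Sgk1 and Tsc22d3 are separated upwards in the deficient pools, Nr3c1 downwards, and Fkbp5 and Zbtb16 are spread by a low wild type pool 2 (9.38 and 7.36).

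Fkbp5, the feedback inhibitor of the receptor, had no clear direction. Its main probe set had log2 values of 10.00 and 10.16 in deficient HSC and 10.39 and 9.38 in wild type HSC. The wild type pools enclosed both deficient pools and stood 1.00 apart, so the mean difference of 0.20 (SE 0.34) was smaller than the spread within the wild type group. The deficient pools were lower than wild type pool 1, by 0.39 and 0.22, and higher than wild type pool 2, by 0.62 and 0.78. Leaving out wild type pool 2 gave -0.30, and leaving out wild type pool 1 gave 0.70. The second probe set had 6.89 and 6.69 in deficient HSC and 6.53 and 6.32 in wild type HSC, with no overlap and a difference of 0.36 (SE 0.16). The dimmest, with a mean of 2.98, differed by 0.06.

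Zbtb16, a factor also known from natural killer T cells, was higher in the deficient pools, with wild type pool 2 the lowest of all. Its main probe set had log2 values of 8.67 and 8.36 in deficient HSC and 8.30 and 7.36 in wild type HSC. The groups did not overlap, but deficient pool 2 and wild type pool 1 were only 0.06 apart, and the mean difference was 0.69 (SE 0.34), or 1.61-fold. Without wild type pool 2 the difference was 0.22, and without wild type pool 1 it was 1.16. The second probe set had 7.67 and 7.83 in deficient HSC and 7.44 and 6.41 in wild type HSC (0.83, SE 0.35), and the third overlapped between the groups (0.21, SE 0.21). All 3 probe sets of Zbtb16, like all 3 of Fkbp5, were lowest in wild type pool 2, whereas Tsc22d3 was lowest in wild type pool 1. Markers of T and NK cells, which the sort should remove, had a log2 difference above 0 for 7 of 8 measured genes, with a median of 0.04. The groups did not overlap upwards for 1 gene, where 17.0% of all genes lay so. By limma 0 had an unadjusted p under 0.05, against 2.19% of all genes higher and 4.04% lower. The T and NK cell markers had summed log2 values of 48.3 and 48.7 in deficient HSC and 46.9 and 49.0 in wild type HSC. The part of such cells in the Zbtb16 values was not tested.

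Per1 and Ddit4, each with 1 probe set, showed little difference. Per1 had log2 values of 7.80 and 7.84 in deficient HSC and 7.93 and 7.73 in wild type HSC, with the deficient pools between the wild type pools and a mean difference of -0.01 (SE 0.15). Ddit4 had 8.37 and 8.59 in deficient HSC and 8.44 and 8.30 in wild type HSC, with overlap and a mean difference of 0.11 (SE 0.16). With 1 pool left out Per1 ran from -0.11 to 0.09 and Ddit4 from 0.00 to 0.22. For both genes the sign depended on which pool was left out, or the value came down to 0.

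**Figure D2:**
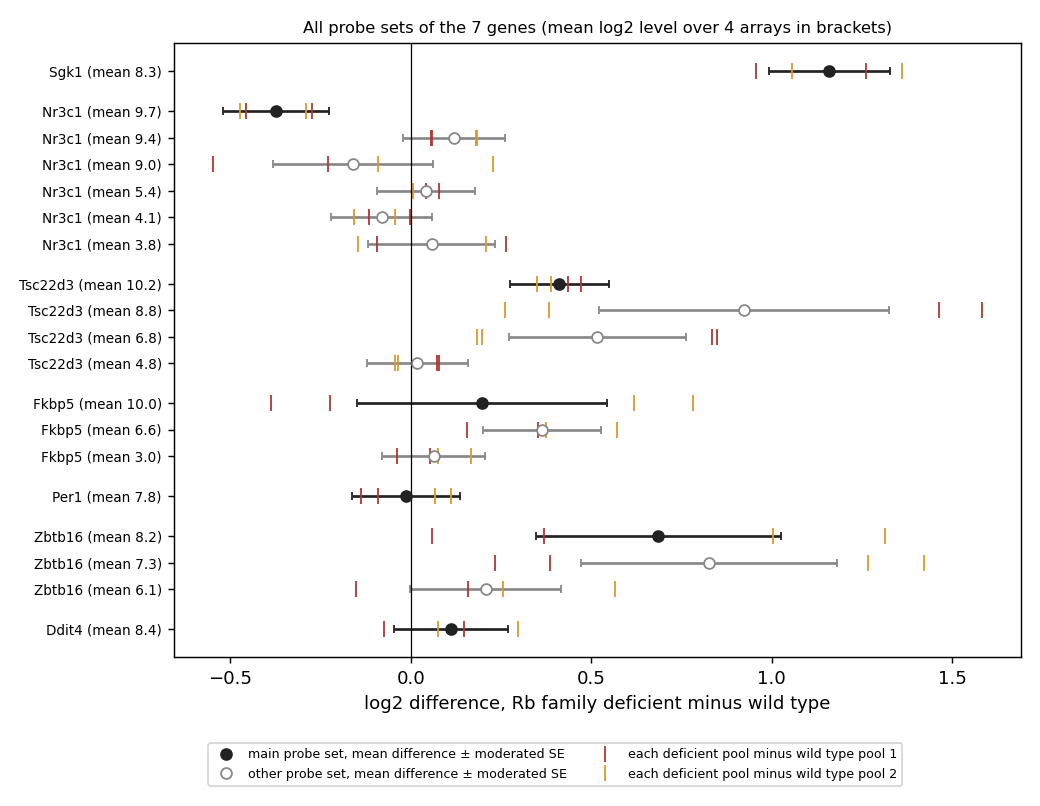
Log2 difference, Rb family deficient minus wild type, of all 19 probe sets of the 7 genes (x axis), ordered by gene and by mean level, with circles and bars for the mean difference and its moderated SE and ticks for each deficient pool set against wild type pool 1 or pool 2. The ticks of Tsc22d3, Fkbp5 and Zbtb16 split by the wild type pool they are set against, and those of Sgk1 stay between 0.96 and 1.36.

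Of the 7 main values, 3 had both deficient pools above both wild type pools, 1 had both below, and 3 overlapped. Over all genes 17.0% lay above in this way and 18.5% below. Because Sgk1 was chosen in this same comparison, nothing is read from these counts. The median log2 difference of the 7 genes was 0.20, and that of all genes was -0.0038. Of the 19 probe sets, 9 lay above, 2 below and 8 overlapped.

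The other 6 genes, and the genes outside the lists, were also set beside Sgk1 as profiles over the 4 arrays. The distance used was the Euclidean distance between log2 values centred on each gene's own mean. The values were not scaled, so genes with differences of unlike size lie apart even where their patterns are alike. From Sgk1 the nearest of the other 6 were Zbtb16 at 0.76 and Tsc22d3 at 0.78, and the farthest was Nr3c1 at 1.57. Outside the gene lists the nearest genes to Sgk1 were Pde5a, a cyclic GMP phosphodiesterase, at 0.13, the secreted glycoprotein gene Lrg1 at 0.16, the predicted gene Gm20199 at 0.20, Tgfbi, a matrix protein induced by TGF-beta, at 0.23 and Rgs10, which speeds the shut-off of G protein signals, at 0.24. Pde5a had log2 values of 8.53 and 8.21 in deficient HSC and 7.39 and 7.12 in wild type HSC. From Tsc22d3 the nearest were Gmnn, an inhibitor of replication licensing, at 0.03, and the zinc finger gene Zfp119b, also at 0.03. The genes outside the lists were picked as the nearest of all measured there. That they lie nearer than preset genes follows from this choice, and nothing is read from it. These distances rest on 4 arrays and describe likeness only.

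Of the genes named in the genotypes, Rb1 had 9.82 and 9.72 in deficient HSC and 9.37 and 9.58 in wild type HSC, and Rbl2 had 7.82 and 8.21 in deficient HSC and 8.94 and 8.75 in wild type HSC, all on the log2 scale. Rbl1, the gene of p107, had log2 values of 5.35 and 5.42 in deficient HSC and 5.92 and 6.77 in wild type HSC, so it was lower in deficient HSC although both genotype labels give p107-/-. Where their probes lie relative to the deleted parts is not given in the labels, so these levels check no genotype. Neutrophil markers, of cells that the sort should remove, had a difference above 0 for 9 of 10 measured genes, with summed log2 values of 107.5 and 99.4 in deficient HSC and 90.3 and 97.4 in wild type HSC. The groups did not overlap upwards for 6 of the 10 and downwards for 0, where 17.0% and 18.5% of all genes lay so. By limma 3, all higher, had an unadjusted p under 0.05, against 2.19% of all genes. Wild type pool 1 was the lowest in these markers, and no marker was listed at 0, since the method gives every probe set a positive value. HSC markers had a difference below 0 for 9 of 11, with summed log2 values of 109.7 and 113.7 in deficient HSC and 114.8 and 115.2 in wild type HSC, and deficient pool 1 was the lowest. For HSC markers the groups did not overlap downwards for 5 of the 11 and upwards for 0. These 5 were Procr (-0.845), Mecom (-0.69), Meis1 (-0.62), Kit (-0.59) and Fgd5 (-0.24). By limma 2, both lower, had an unadjusted p under 0.05, against 4.04% of all genes. Slamf1, which encodes the CD150 of the gate, was 1 of the 2 HSC markers above 0. It had 9.26 and 9.90 in deficient HSC and 8.81 and 9.86 in wild type HSC. The Y-linked gene Kdm5d had 6.12 and 7.86 in deficient HSC and 8.26 and 8.37 in wild type HSC, and the Actb controls, whose 3′ end was brighter than the 5′ end in all pools as a measure of RNA quality, showed a log2 gap of 3.13 and 2.95 in deficient HSC and 2.32 and 2.81 in wild type HSC. In pooled cells, more cells of a type and more RNA per cell cannot be told apart. The part of neutrophil RNA, RNA quality or sex in the values of Sgk1 and the other genes was not tested.

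**Figure D3:**
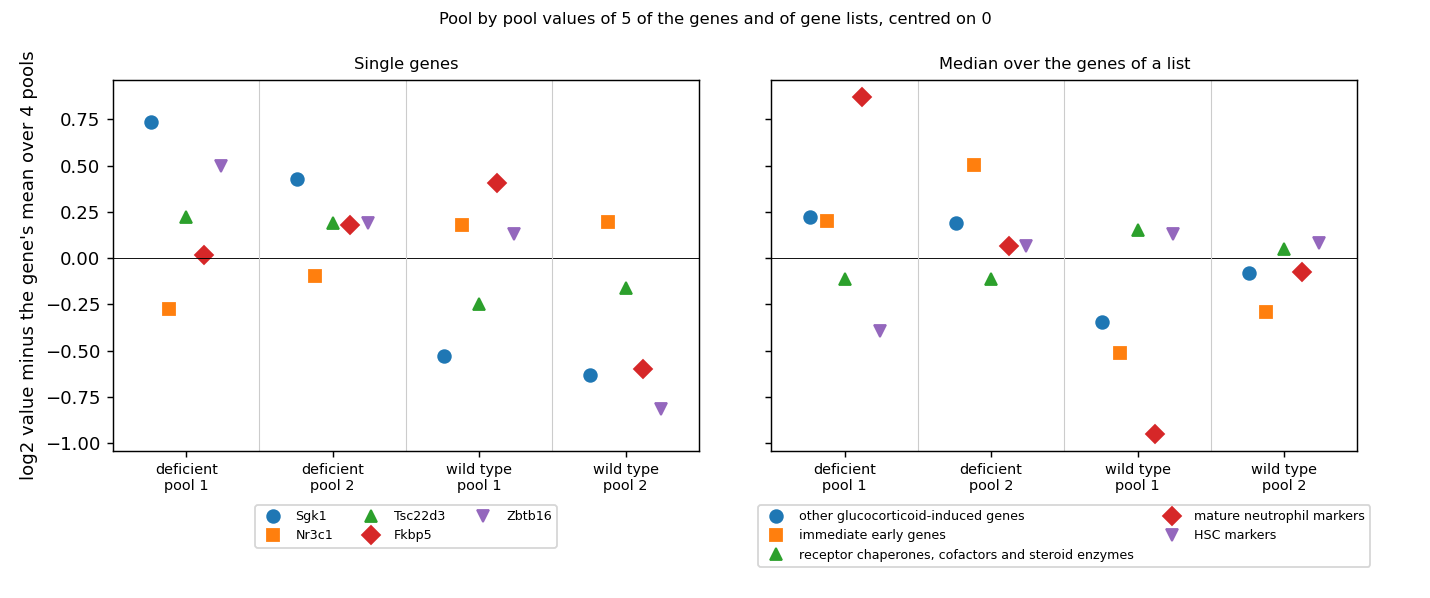
Log2 values of 5 of the genes, each centred on its mean over the 4 pools (left), and the median of such centred values over the genes of 5 lists (right), by pool. Sgk1 and the neutrophil markers (0.87) are both highest in deficient pool 1; the markers are lowest in wild type pool 1 (-0.95), and the wild type values of Sgk1 lie 0.10 apart.

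Other genes known to be induced by glucocorticoids were mostly higher in the deficient pools. Of 28 measured genes on that list, 23 had a difference above 0, and the median was 0.46 on the log2 scale. By limma with Benjamini-Hochberg adjustment over all genes 0 of the 28 were called, as were 0.0% of all genes in either direction. With no adjustment, p was under 0.05 for 6 that were higher and for 0 that were lower, against 2.19% and 4.04% of all genes in those directions. The groups did not overlap upwards for 15 of the 28, where 17.0% of all genes lay so. On the list 2 genes, Dusp1 and Zfp36, are also immediate early genes, and Lcn2 is a neutrophil marker. Without these 3 genes the median was 0.44, with 20 of 25 above 0. Taking 3 of 28 genes out can move a median only a little, so nothing is read from this. The part of immediate early or neutrophil RNA in the other genes of the list was not tested. Without wild type pool 1 the median of all 28 was 0.24. The list was compiled with earlier results of these data known.

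The members of that list with the lowest p were Il1r2, Cdkn1a, Cebpd and Zfp36. Il1r2, a decoy receptor for interleukin-1, had log2 values of 7.79 and 7.55 in deficient HSC and 6.21 and 6.38 in wild type HSC (1.38, SE 0.17, limma adjusted p = 0.761). Cebpd, a transcription factor of the acute phase response, differed by 1.13 (SE 0.31), with wild type pool 1 the lowest at 6.97, and its second probe set by 0.27 (SE 0.22). The p21 gene Cdkn1a differed by 1.17 (SE 0.25) and Zfp36, which destabilises cytokine mRNA, by 1.02 (SE 0.29). The receptor target Klf9 had 12.38 and 12.21 in deficient HSC and 11.46 and 11.84 in wild type HSC (0.64, SE 0.19), and its 7 probe sets differed by 0.04 to 0.64. The phosphatase gene Dusp1 differed by 0.83 (SE 0.35). The metallothionein genes Mt1 (1.17, SE 0.62) and Mt2 (1.05, SE 0.88) had wide errors, since Mt1 had 8.42 in wild type pool 1 but 10.33 in wild type pool 2, close to the 10.34 of deficient pool 2. The dimmer Mt1 probe set differed by 0.56.

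Inflammatory genes that the receptor is known to repress were mostly not below 0, but several were dim. In wild type HSC mean log2 values were 3.46 for Il1a, 4.21 for Sele, 4.22 for Csf2, 4.31 for Ptgs2, 4.51 for Il6 and 4.66 for Cxcl2. The lowest value on the arrays was 2.65, so lower levels could hardly show in these genes. Others were brighter, such as Icam1 at 9.23. Of all 17 measured, 14 were above 0, with a median of 0.11, and limma called 0. The prostaglandin synthase gene Ptgs2 (2.15, SE 0.20), the chemokine gene Cxcl2 (2.18, SE 0.23) and Il6 (1.33, SE 0.30) were the 3 at an unadjusted p under 0.05. All were higher, against 2.19% of all genes, with limma adjusted p of 0.534, 0.577 and 0.761 in that order. The groups did not overlap upwards for 6 of the 17, where 17.0% of all genes lay so, and downwards for 0. Nos2 differed by 0.30 (SE 0.15), and the dimmer probe set of Ptgs2 by 0.52. Cxcl10 (-0.97, SE 0.61) and Ccl5 (-0.36, SE 0.34), named after their values were seen, had the most negative differences.

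A mixed list of receptor chaperones, coactivators and corepressors, steroid enzymes, the related receptor gene Nr3c2 and the steroid efflux pump genes Abcb1a and Abcb1b had more members below than above 0. Of 19 measured, 12 were below 0, with a median of -0.26, limma called 0, and 5, all lower, had an unadjusted p under 0.05, against 4.04% of all genes. These were the chaperone genes Fkbp4 and Stip1, and Nr3c2, H6pd and Abcb1a (-0.44, SE 0.17), which encode no chaperone. Fkbp4, the immunophilin that competes with FKBP5 for the receptor, had log2 values of 9.92 and 9.91 in deficient HSC and 10.30 and 10.45 in wild type HSC (-0.46, SE 0.15), but its second probe set differed by 0.07. The co-chaperone gene Stip1 differed by -0.56 (SE 0.21), the mineralocorticoid receptor gene Nr3c2, which binds the same hormones, by -0.42 (SE 0.15), and Hsp90aa1 by -0.19 (SE 0.18). The limma adjusted p was 0.761 for Fkbp4, 0.782 for Nr3c2 and 0.785 for Stip1. Hsd11b1, the enzyme that regenerates active hormone inside the cell, went the other way, with 8.46 and 8.49 in deficient HSC and 6.65 and 8.13 in wild type HSC (1.09, SE 0.47, limma adjusted p = 0.801). H6pd, which supplies that enzyme with its cofactor, differed by -0.39 (SE 0.15).

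The relatives, activators and substrates of SGK1 were mostly a little below 0. Of 23 measured, 18 were below 0, with a median of -0.09, and limma called 0. Only Nedd4, a ubiquitin ligase gene, was at an unadjusted p under 0.05 (-0.84, SE 0.31). It was 1 lower gene of 23, where 4.04% of all genes lay so. Its other 2 probe sets overlapped between the groups and differed by -0.08 and -0.25. Next came Mtor (-0.26, SE 0.16), Akt1 (-0.35, SE 0.24) and Foxo4 (-0.25, SE 0.19). The second probe sets of Mtor (0.19) and Akt1 (0.06) lay above 0. The dimmest of Mtor (-0.34, SE 0.18) and of Akt1 (-1.17, SE 0.50) were lower in deficient HSC with no overlap. The remaining Akt1 probe set differed by -0.0008. Sgk3, which encodes a related kinase, had log2 values of 9.87 and 9.84 in deficient HSC and 9.88 and 9.84 in wild type HSC (-0.01, SE 0.14), and its other probe sets differed by -0.19 and -0.58. Ndrg1, whose product is a substrate of the kinase, differed by 0.19 (SE 0.18) with others from -0.03 to 0.82, Foxo3, another substrate, by -0.10 (SE 0.14) with -0.36 in its second, and Nedd4l, the ligase it inhibits, by -0.27 (SE 0.35). Among 20 partners of DDIT4 and regulators of mTORC1, with 7 above 0 and a median of -0.06, limma called 0. Deptor, an inhibitor of mTOR, was the only one at an unadjusted p under 0.05, 1 higher gene of 20, where 2.19% of all genes lay so. It had 10.50 and 10.64 in deficient HSC and 9.57 and 9.90 in wild type HSC (0.84, SE 0.18). The other Deptor probe sets differed by -0.11 to 0.58. Sesn1 (-0.35, SE 0.15), Castor1 (0.35, SE 0.17) and Akt1s1 (0.31, SE 0.16) followed, and the other Akt1s1 probe sets differed by -0.22 and -0.12.

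Relatives of Tsc22d3 and Fkbp5 were mostly below 0, 11 of 15 with a median of -0.16, and limma called 0. Fkbp1b differed by 0.52 (SE 0.16), Fkbp3 by -0.29 (SE 0.14) and Fkbp15 by -0.27 (SE 0.15, others from -0.71 to 0.46), while Tsc22d1 differed by 0.19 (SE 0.17) in its main probe set and by -0.70 (SE 0.26) in its brightest specific one. Of 20 clock genes besides Per1, 9 were above 0 with a median of -0.03, and limma called 0. Bhlhe40 had log2 values of 7.89 and 7.86 in deficient HSC and 7.21 and 7.35 in wild type HSC (0.60, SE 0.15). Ciart differed by 0.39 (SE 0.14), the output factor Dbp by -0.70 (SE 0.28) and Per3 by -0.51 (SE 0.21). Of the other Per3 probe sets, 2 were higher in deficient HSC with no overlap (0.29 and 0.38), and the rest ran from -0.22 to 0.02. Without deficient pool 1 the median was 0.09. Per2 differed by 0.22 (SE 0.19), and its next brightest probe set by -0.69 (SE 0.30).

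Other programs known to induce members of the group were set beside them. Of 18 integrated stress response genes, a program that also induces Ddit4, 12 were above 0 with a median of 0.31, and limma called 0. Nupr1 (1.01, SE 0.19), Vldlr (1.45, SE 0.31), Chac1 (0.76, SE 0.16) and Atf4 (0.46, SE 0.15) had the lowest p. The second Atf4 probe set overlapped between the groups and differed by 0.05. Their median was 0.03 without deficient pool 2, 0.10 without wild type pool 1 and 0.52 without wild type pool 2. Of 26 immediate early genes, which respond to serum and to cell handling, 23 were above 0 with a median of 0.78, 13, all higher, had an unadjusted p under 0.05, against 2.19% of all genes, and limma called 0. Klf2 (1.18, SE 0.16), Egr2 (2.98, SE 0.55), Jund (1.05, SE 0.21) and Fos (1.10, SE 0.23) had the lowest p, and the dimmer probe set of Jund differed by 0.21. The median of their centred log2 values was 0.20 and 0.50 in deficient HSC and -0.51 and -0.29 in wild type HSC, so both deficient pools were higher, as for Sgk1, but these genes were highest in deficient pool 2 and Sgk1 in deficient pool 1. The part of either program in the Sgk1 values was not tested.

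**Figure D4:**
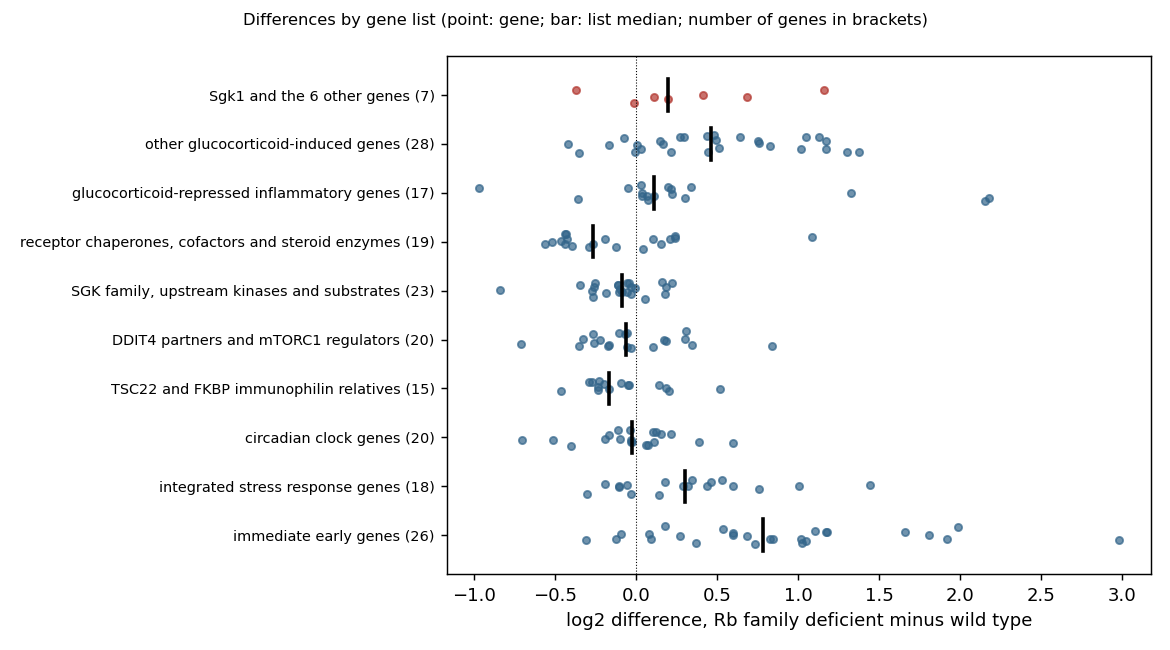
Log2 difference, Rb family deficient minus wild type (x axis), of Sgk1 and the 6 other genes and of each gene of the 9 further lists (rows), with a bar at the median of each row. The medians run from -0.26 for the receptor chaperones, cofactors and steroid enzymes to 0.78 for the immediate early genes.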

How the data were processed

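Expression was measured on 4 mouse arrays, 1 for each pool. Per the submitters' processing notes, which name RMA and limma without versions, the authors deposited RMA values, taken here as log2 from their range of 2.65 to 14.91. RMA corrects background, makes the arrays' distributions alike and combines the probes of a set. Such values do not show a change in total RNA, and folds of dim probe sets are compressed.

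The platform annotation gave 1 symbol for 34945 probe sets, several for 932 and none for 9160; 64 were array controls. Symbols were updated by Entrez identifier with RefSeq genes of GRCm38.p6 (34741 matched). The brightest probe set stood for each of 18193 genes, with no filter. Differences are Rb family deficient minus wild type, from limma 3.58.1 in R 4.3.3 (lmFit, eBayes), with Benjamini-Hochberg adjustment over all genes and a threshold of 0.05; every SE is the moderated one. The procedure was tested on simulated data. The number of arrays limits the precision. The 7 genes and all lists were chosen with earlier results of these data known. Besides the 7 genes, the 4 genes of each list with the lowest p and a fixed set of pathway genes were named. Promoter windows come from RefSeq. Alternatives covered the choice and averaging of probe sets, centring, brightness, variance settings, a block by pool number and each pool left out.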

Additional observations from a re-analysis of the deposited data

How the results depend on the processing

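Limma called 0 genes under all 12 alternatives run, with 561 to 1771 genes at an unadjusted p under 0.05, against 1134, and 3038 of 45101 when all probe sets were tested. The pool numbers mark no stated pairing; with the replicate number as a block 0 genes were called, and 738 had an unadjusted p under 0.05. Pools of the same number deviated oppositely (r = -0.19 across genes), and a crossed pairing, added after seeing the data, also gave 0 calls. Sgk1, Fkbp5, Per1, Zbtb16 and Ddit4 moved by less than the spread between pools under every alternative, but most alternatives could not have given more. Leaving out 1 pool cannot move a difference by more than that spread, and Fkbp5 still ran from -0.30 to 0.70. Block, brightness and variance settings leave the difference as it is, and Sgk1, Per1 and Ddit4 have 1 probe set each. So no stability is read from these runs. Averaging all probe sets of a gene gave -0.065 for Nr3c1 and 0.47 for Tsc22d3, which median centring also put at 0.47, and preferring specific probe sets gave 0.019 for Tsc22d3. Directions turned for Fkbp4 (0.067) and Tsc22d1 (-0.70) when specific probe sets were preferred, for Per2 (-0.16), Akt1s1 (-0.011) and Tsc22d1 (-0.085) on averaging, and for Sgk3 (0.047) and Per1 (0.042) with median centring. The sign of Per1 (-0.11 to 0.089) also turned with 1 pool left out. With 1 pool left out Mt2 ran from -0.016 to 2.11, Nedd4l from -0.80 to 0.25 and Sgk3 from -0.029 to 0.014. The median of other glucocorticoid-induced genes was 0.24 without wild type pool 1 and 0.28 on averaging, that of stress response genes 0.03 without deficient pool 2, and that of clock genes 0.09 without deficient pool 1. The cause was not tested.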
